A study of Mus musculus with 14 samples.

Results

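The genes of the alpha and beta adrenergic receptors were examined as a family in reduced-representation bisulfite sequencing (RRBS) of mouse mammary adipose tissue. All sites whose nearest gene is Adra1a, Adra1b, Adra1d, Adra2a, Adra2b, Adra2c, Adrb1 or Adrb3 were taken, whatever their level. They number 42 of the 75761 sites measured and belong to 7 of the 8 genes, with Adrb3 the nearest gene of 0 sites. Adra2c holds 22 of them, Adra2a 10, Adra1d and Adra2b 3 each, Adrb1 2, and Adra1a and Adra1b 1 each.

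The DNA came from 14 female wild-type C57BL/6N mice. CON-LFD mice (n = 3) ate a low-fat control diet throughout. The others were made obese on a diet with 60% fat and then stayed on it (DIO-HFD, n = 4), were moved to the low-fat diet (DIO-LFD, n = 3), or were moved to it after vertical sleeve gastrectomy (DIO-VSG, n = 4), a bariatric operation that removes most of the stomach. Mice without the gastrectomy had a sham operation, and all mice received E0771 mammary tumor cells 22 weeks after they were assigned to a diet, so every group carried a tumor on the other side. Between DIO-VSG and DIO-HFD both operation and diet differ and cannot be told apart, while between DIO-VSG and DIO-LFD the diet is shared. The fat pad holds adipocytes together with epithelium, vessels and leukocytes, and a level is an average over the alleles of all its cells. A change of level within 1 cell type and a change in the share of cell types therefore cannot be told apart here.

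Adrenergic receptors bind noradrenaline from sympathetic nerves and adrenaline from the blood. In fat cells, beta receptors act through the stimulatory G protein and cyclic AMP to switch on lipolysis. Alpha-2 receptors act through the inhibitory G protein and can restrain lipolysis, and alpha-1 receptors act through Gq and phospholipase C. Whether alpha-2 receptors restrain lipolysis in this tissue was not tested. Methylation of CpG sites at gene starts is known to go with silent transcription, whereas methylation within gene bodies has no fixed relation to it. Expression of these genes was not analysed here.

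RRBS reads bisulfite-treated ends of fragments cut at CCGG by the enzyme MspI, and per the labels fragments of 40 to 170 bp were collected. The level of a site is the percent of its reads that were methylated in 1 mouse. Sites are named by their distance in bp from the transcript start that the deposited table gives, with + for downstream. The sequences around sites described at length are given first, all from the plus strand of mm10, with the measured CpGs in capitals.

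The pair of Adra2a sites lies in the 3′ untranslated region of the gene, at chr19:54047666-54047695. The trio of Adra2c sites lies in the coding sequence of its single exon, at chr5:35280583-35280637, and the MspI fragment that starts at Adra2c +2416 lies further along the same exon, at chr5:35280733-35280767. Adra2c +7153 lies beyond the gene, in intergenic sequence at chr5:35285445-35285505. The Adra1b fragment, chr11:43836539-43836643, lies in a CpG island in an intron of the longest transcript, and the Adrb1 fragment, chr19:56723524-56723559, in the coding sequence. The Adra2b sites lie in intergenic sequence past the gene, at chr2:127376650-127376710.
Adra2a +2497 and +2503: tcgagggggtgCGtctaCGcatgcagcccc
Adra2c +2286, +2292 and +2296: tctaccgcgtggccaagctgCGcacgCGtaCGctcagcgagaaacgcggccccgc
Adra2c +2416: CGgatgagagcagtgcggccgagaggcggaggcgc
Adra2c +7153: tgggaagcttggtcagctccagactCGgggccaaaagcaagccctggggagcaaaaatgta
Adra1b -208: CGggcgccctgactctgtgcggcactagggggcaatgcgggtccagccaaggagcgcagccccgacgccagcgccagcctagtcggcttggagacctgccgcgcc
Adrb1 +1154: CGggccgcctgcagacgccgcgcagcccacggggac
Adra2b +13390 and +13401: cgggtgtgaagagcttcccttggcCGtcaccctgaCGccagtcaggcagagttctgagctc

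The table measures only some of the CpGs in these stretches. Of the 10 CpGs in the first Adra2c stretch 3 were measured, and of the 11 CpGs in the Adra1b fragment 1 was. RefSeq promoter windows of mm10 were on hand for 5 of the 8 genes, and Adra1b -208 was the 1 receptor site that fell in such a window, 50 bp before a RefSeq start. For Adra2a, Adra2c and Adrb1 the table thus speaks mainly of the body and surroundings of the gene, and not of its first bases.

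All 42 sites are the C of a CpG. By the table's flags 23 lie in CpG islands, which is 54.8% of them against 23.8% of all sites, 24 lie in exons and 7 in promoters. By GENCODE, 14 lie in coding sequence, 10 in untranslated regions and 15 in intergenic sequence. The sites are not independent of each other, because they sit in 30 MspI fragments and 19 of them share a fragment with another receptor site. Cut in silico, 10 of the 22 sites outside CCGG lie on fragments outside the size range of the labels. Among them are Adra2a +2497 and +2503 (248 bp), Adra2c +2286, +2292 and +2296 (176 bp) and Adra2c +7153 (215 bp). Of the 20 sites within CCGG, 13 start a fragment outside that range, among them Adra2c +2416 (35 bp) and Adrb1 +1154 (36 bp). How reads came from such fragments was not tested.

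Mean levels over the 14 mice ran from 3.77% at Adra2c +1354 to 92.3% at Adra2b +13471. Among the island sites, level went with the position in the MspI recognition site. The 16 island sites within CCGG had mean levels from 29.4% to 71.3%, with a median of 51.0%, and the 7 outside CCGG had levels from 3.77% to 36.8%, with a median of 18.1%. The same split appeared over all island sites of the table, with medians of 50.6% and 30%. What part the recognition site has in these levels was not tested. Outside islands the medians of the receptor sites were 71.1% within CCGG (4 sites) and 61.7% elsewhere (15 sites), against 75.3% and 74.5% over all sites.

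**Figure D1:**
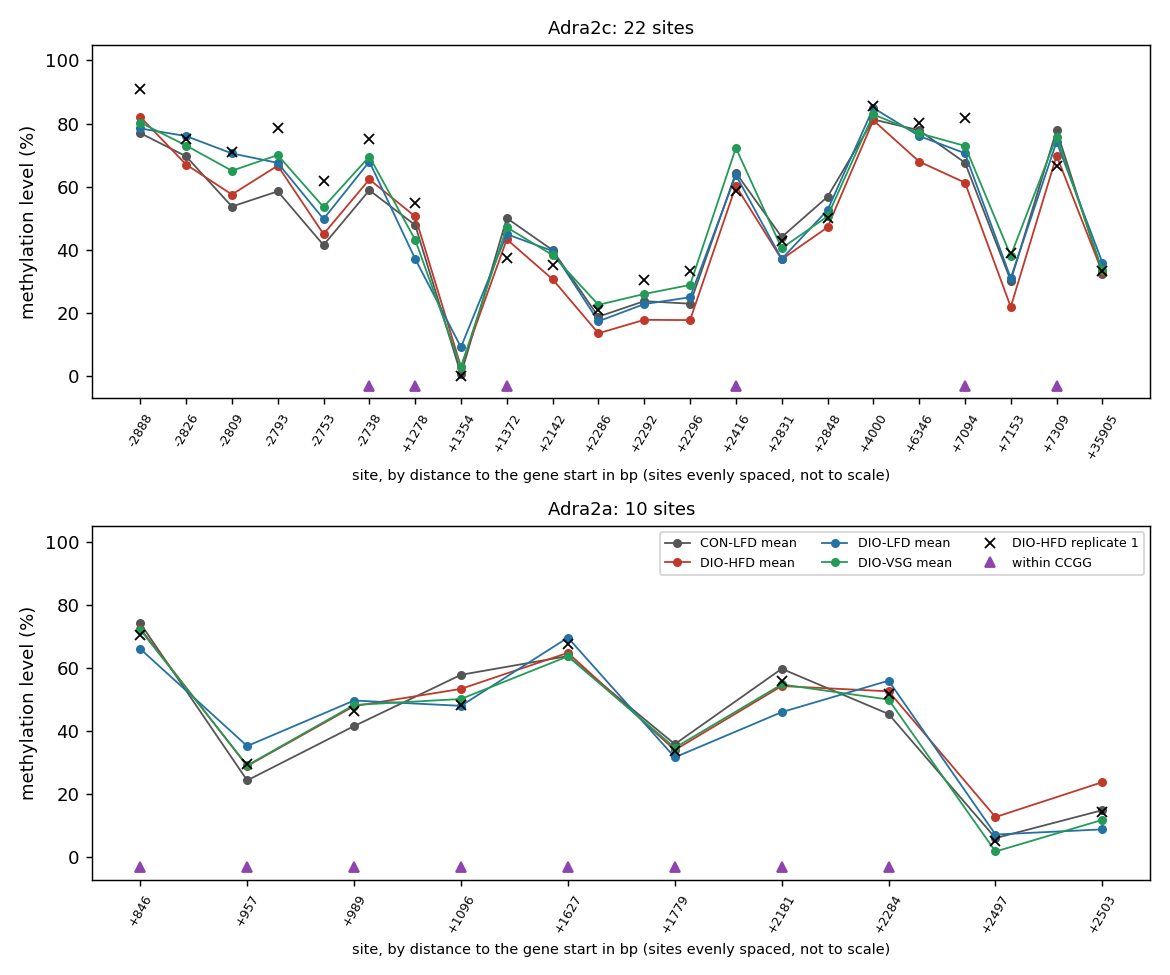
Methylation level (%, y axis) of the 22 Adra2c sites (top) and the 10 Adra2a sites (bottom), in order of distance from the gene start (x axis, bp, evenly spaced). Lines join group means, crosses show DIO-HFD replicate 1, and triangles mark sites within CCGG. In Adra2c the DIO-HFD mean is below the DIO-VSG mean at most sites past +1278, while in Adra2a the DIO-HFD mean is the highest of the 4 at +2497 (12.8%) and +2503 (23.8%).

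Over the whole table, 65610 sites varied enough between mice to be tested (standard deviation of 5 percentage points or more), and their mean level was 57.2% to 57.6% in 3 DIO-HFD mice and 66.2% in DIO-HFD replicate 1, which stands apart from its group. The other 10 mice lay between 60.6% and 65.2%. Its mean was closer to those of the other groups than to those of its own, and whether its label is right was not tested. The main tests against DIO-HFD are therefore given with all mice and again without it. That mouse was singled out by its levels in these same data, so the results without it are a description and not separate support. Methylation levels near leukocyte and endothelial markers were higher in the same mouse, as was the mean of all tested sites. Those near epithelial and adipocyte markers were not. The mean level over 29 sites near 5 of 8 leukocyte markers was 65.9% in DIO-HFD replicate 1 and at most 57.7% in the other 3. Over 4 sites near 2 of 3 endothelial markers it was 51.5% against at most 38.9%. Over 13 sites near 5 of 7 epithelial markers it was 64.8% against at most 66.6%. For adipocytes only 2 sites near 2 of 6 markers were measured, at 50.0% against at most 50.0%. The part of cell types in the receptor levels was not tested.

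Of the receptor sites, 33 had enough spread to be tested, from 6 genes. These are 20 of the 22 Adra2c sites, 8 of the 10 Adra2a sites, 1 of the 3 Adra2b sites, 0 of the 3 Adra1d sites and all sites of Adrb1, Adra1a and Adra1b. Levels were tested as M, the log2 ratio of methylated to unmethylated share, with limma over all 65610 sites and Benjamini-Hochberg adjustment. At an adjusted p under 0.05, 0 of the 33 sites passed in each of the 4 comparisons. The background shares were 0% for CON-LFD against DIO-HFD and 0.00305% for each of the other 3. The adjusted p-values of limma at the receptor sites ranged from 0.615 to 0.983 for CON-LFD, from 0.494 to 0.990 for DIO-LFD and from 0.150 to 0.994 for DIO-VSG, each against DIO-HFD, and from 0.945 to 0.995 for DIO-VSG against DIO-LFD.

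Before adjustment, at p under 0.05 in limma, the comparisons with DIO-HFD gave the receptors no larger a share of calls than the table. For CON-LFD against DIO-HFD 0 of 33 sites passed, against 7.76% of all sites. For DIO-LFD 3 passed, which is 9.09% against 10.1%, and all 3 were lower than in DIO-HFD, as were 2.16% of all sites. For DIO-VSG 6 passed, which is 18.2% against 25%. Of these 4 were higher (12.1% against 20.2%) and 2 lower (6.06% against 4.85%). Between DIO-VSG and DIO-LFD 3 passed, which is 9.09% against 3.98%. Of these 2 were higher in DIO-VSG (6.06% against 2.42%) and 1 lower (3.03% against 1.55%).

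Without DIO-HFD replicate 1, limma called more sites everywhere. In DIO-VSG against DIO-HFD 9 of 33 receptor sites passed at an adjusted p under 0.05, which is 27.3% against 34.4% of all sites. Of these 7 were higher (21.2% against 28.8%) and 2 lower (6.06% against 5.62%). In DIO-LFD 4 passed, which is 12.1% against 14.6%, with 3 higher (9.09% against 12.1%) and 1 lower (3.03% against 2.42%). In CON-LFD 1 passed, Adra2c +2296, which is 3.03% against 12%, and was higher, as were 9.67% of all sites. Between DIO-VSG and DIO-LFD 0 passed, against 0.00457%. Before adjustment 7, 9, 11 and 3 sites passed for CON-LFD, DIO-LFD and DIO-VSG against DIO-HFD and for DIO-VSG against DIO-LFD, where 30.9%, 32.6%, 44.9% and 6.77% of all sites did. The 9 sites of DIO-VSG were Adra2a +2497 and +2503, Adra2b +13401 and Adra2c +2286, +2292, +2296, +2416, +7094 and +7153, and the 4 of DIO-LFD were Adra2a +2503 and Adra2c -2809, +2296 and +7094. Without that mouse, the receptor shares after adjustment lay below those of the table in each comparison with DIO-HFD. The receptor sites are few, partly share fragments and lie in CpG islands more often than all sites. These shares are therefore not read as a trait of the receptors.

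In the comparisons with DIO-HFD the median difference of the receptor sites was below that of the table. The median difference of group means at the 33 sites was 1.86 percentage points for CON-LFD against DIO-HFD, where the median of all sites was 3.7. It was 3.44 against 3.8 for DIO-LFD, 3.51 against 5.40 for DIO-VSG and 2.46 against 1.71 for DIO-VSG against DIO-LFD. Leaving out DIO-HFD replicate 1 gave CON-LFD a median of 2.13 against 5.92 over all sites. It gave DIO-LFD 4.84 against 6.04 and DIO-VSG 5.45 against 7.47. On the M scale the median of all sites was shifted by 0.29, 0.30, 0.48 and 0.16 in these comparisons, so a receptor site needs a larger difference to exceed the common one. With each mouse centred on its median M, 5 of 33 receptor sites passed in DIO-VSG against DIO-HFD before adjustment, against 20% of all sites. Of these receptor sites 1 was higher and 4 lower, where 4 higher and 2 lower had passed without centring. Of all 65610 tested sites, 5666 passed as higher and 7447 as lower after centring. Over all sites the share of higher calls moved from 80.6% to 43.2%.

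**Figure D2:**
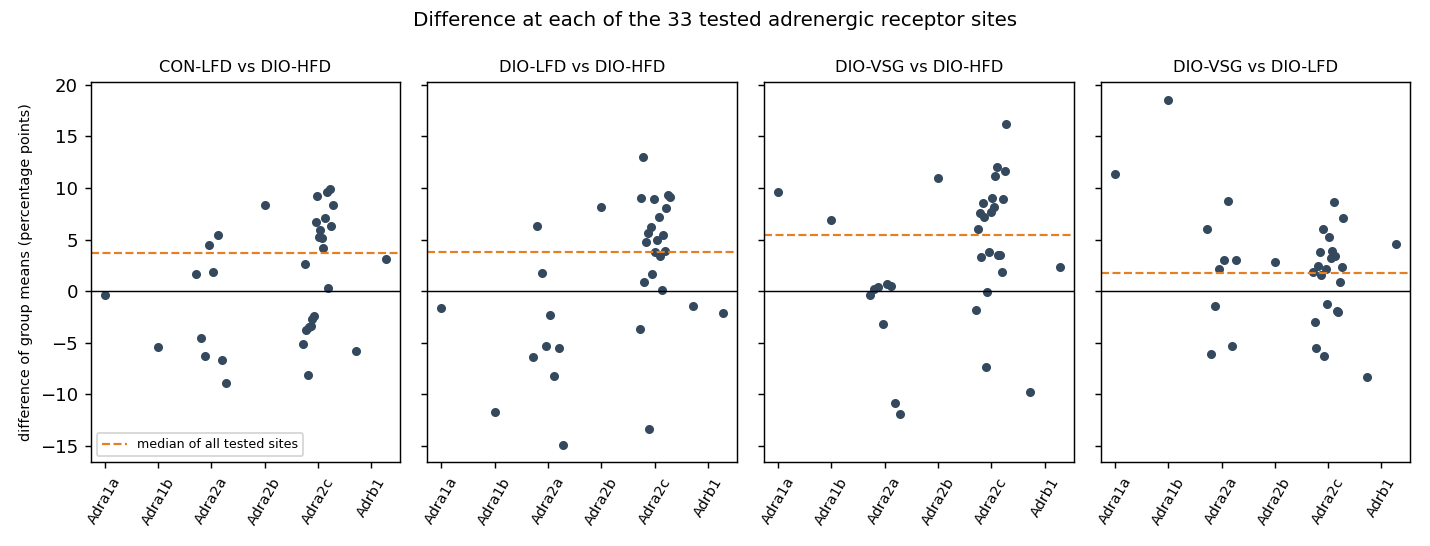
Difference of group means (percentage points, y axis) at each of the 33 tested sites by gene (x axis) in 4 comparisons, with the dashed line at the median of all tested sites. In DIO-VSG against DIO-HFD, 17 of the 20 Adra2c points lie above 0 and the 2 lowest points are Adra2a sites.

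Adra2a encodes the alpha-2A receptor, a brake on noradrenaline release. The gene was less methylated in DIO-VSG than in DIO-HFD at a pair of neighbouring sites in its 3′ untranslated region. At Adra2a +2497 the 4 DIO-HFD mice were at 5.36%, 18%, 19.1% and 8.70%, and the 4 DIO-VSG mice at 1.79%, 0%, 1.33% and 4.41%. The groups did not overlap. The CON-LFD mice, at 3.33%, 4.65% and 10.4%, and the DIO-LFD mice, at 3.12%, 12.8% and 5.88%, overlapped with DIO-HFD. The mean was 1.88% ± 1.85 (SD, n = 4) in DIO-VSG and 12.8% ± 6.81 (SD, n = 4) in DIO-HFD, with a two-sided exact permutation p of 0.0286, the smallest that 4 against 4 mice can give. Any site without overlap of these groups gives that p, as 7.58% of all tested sites do. The site was picked for the smallest limma p of its gene in this comparison, so the permutation p is no separate support.

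At this site the difference in M between DIO-VSG and DIO-HFD was -2.52 (SE 0.614), with a limma adjusted p of 0.150. Without DIO-HFD replicate 1 it was -2.88, with a limma adjusted p of 0.00603, and over all left-out mice the adjusted p of limma ran from 0.00603 to 0.344. With each mouse centred it was -3.0. Because the DIO-VSG levels are near 0, the size in M depends on the offset, and with 0.1 in place of 0.01 it was -1.06, with a limma adjusted p of 0.105. Its direction is opposite to the shift of the whole table.

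The next CpG, Adra2a +2503, was at 14.3%, 25.8%, 37.3% and 17.9% in the DIO-HFD mice, at 10.7%, 9.09%, 16% and 11.8% in the DIO-VSG mice and at 6.06%, 14.9% and 5.71% in the DIO-LFD mice. The CON-LFD mice, at 10%, 13.1% and 21.8%, lay partly below the DIO-HFD range. DIO-HFD replicate 1, at 14.3%, lay within the DIO-VSG and DIO-LFD ranges, while the other 3 DIO-HFD mice were above all mice of both. The difference in M was -1.62 (SE 0.492) for DIO-LFD and -1.10 (SE 0.456) for DIO-VSG against DIO-HFD, with limma adjusted p-values of 0.494 and 0.172. Without replicate 1 these became -1.89 and -1.36, with limma adjusted p-values of 0.0282 and 0.0372. With the offset of 0.1 the former was -1.06 with all mice.

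The other 6 tested Adra2a sites, all within CCGG and in the promoter flag, the 5′ untranslated region or the coding sequence, differed less. Their differences between DIO-VSG and DIO-HFD lay between -3.20 and 0.73 percentage points. Adra2a +846, the site nearest to the start, was at 72.1% ± 4.15 in DIO-VSG (SD, n = 4) and 72.5% ± 1.94 in DIO-HFD (SD, n = 4). In DIO-LFD it was at 65.3%, 76.3% and 56.5%, a spread that held the DIO-HFD mean.

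Over its 8 tested sites, the mean level of Adra2a was 40.9% ± 2.98 in DIO-HFD (SD, n = 4), 37.9% ± 1.15 in DIO-VSG (SD, n = 4), 36.6% ± 2.38 in DIO-LFD (SD, n = 3) and 39.3% ± 1.59 in CON-LFD (SD, n = 3). The difference of DIO-VSG from DIO-HFD was -3.08 percentage points, with a two-sided exact permutation p of 0.0571. It rested mainly on +2497 and +2503, which share a fragment and differed by -10.9 and -11.9 points. Over the 8 sites, 4 were higher and 4 lower, with a median of -0.097 points. With the gene as the unit, the limma adjusted p was 0.174 with all mice and 0.0345 without DIO-HFD replicate 1. With the gene as the unit 0 of 6 receptor genes passed after adjustment in the 4 comparisons, as did 0% of all genes. Before it 0, 1, 3 and 1 passed, where 6.89%, 8.9%, 24.7% and 4.85% of all genes did, and without DIO-HFD replicate 1, after adjustment, 1, 1, 3 and 0 passed against 10.2%, 12.9%, 30.3% and 0%. For DIO-LFD the difference of Adra2a was -4.34 points, with limma adjusted p-values of 0.551 and 0.0956.

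Adra2c encodes the alpha-2C receptor, also an inhibitor of noradrenaline release. With all mice, 17 of its 20 tested sites had a higher mean in DIO-VSG than in DIO-HFD, which is 85% against 73.2% of all sites. As a gene it did not pass with all mice, with a limma adjusted p of 0.200. At Adra2c +2416, in the coding sequence, the DIO-HFD mice were at 58.6%, 63.7%, 57.9% and 60.8% and the DIO-VSG mice at 72.2%, 70.5%, 73.3% and 73.2%. The CON-LFD mice were at 61.8%, 69.6% and 62.0% and the DIO-LFD mice at 62.7%, 67.6% and 60.7%. Each DIO-VSG mouse was above every mouse of the other 3 groups, and DIO-HFD replicate 1 lay with its group here.

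The mean at Adra2c +2416 was 72.3% ± 1.30 in DIO-VSG (SD, n = 4) and 60.3% ± 2.61 in DIO-HFD (SD, n = 4), with a two-sided exact permutation p of 0.0286. This site too was picked for the smallest limma p of its gene in this comparison. The difference in M was 0.76 (SE 0.243) with a limma adjusted p of 0.150, and 0.73 with a limma adjusted p of 0.0277 without DIO-HFD replicate 1. With each mouse centred it was 0.28, with a limma adjusted p of 0.608, so the excess over the shift of the whole table was smaller. Against DIO-LFD the difference was 0.56 (SE 0.262), with a limma adjusted p of 0.945.

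The trio Adra2c +2286, +2292 and +2296, which lie within 11 bases in the coding sequence and share an MspI fragment, were picked out after their values were seen. At +2296 the DIO-VSG mice were at 28.5%, 27.4%, 30.2% and 29.6%, and the DIO-HFD mice at 33.3%, 13.4%, 13.3% and 11%. DIO-HFD replicate 1 was the highest of all 14 mice at this site and the other 3 DIO-HFD mice were the lowest, so the groups overlapped only through that mouse. The CON-LFD mice, at 23.0%, 26.0% and 19.9%, and the DIO-LFD mice, at 31.0%, 24.6% and 19.4%, were all above the lowest 3 DIO-HFD mice, and 1 DIO-LFD mouse was above the DIO-VSG range.

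At Adra2c +2296 the difference in M of DIO-VSG from DIO-HFD was 1.00 (SE 0.391), with a limma adjusted p of 0.161. Without replicate 1 it was 1.44, with a limma adjusted p of 0.00250. The site was also called in the other comparisons without that mouse, at 1.14 for DIO-LFD and 1.00 for CON-LFD, with limma adjusted p-values of 0.0217 and 0.0370. The neighbours +2286 and +2292 had differences of 0.92 and 0.74 in DIO-VSG with all mice, with limma adjusted p-values of 0.171 and 0.221, and of 1.19 and 1.09 without replicate 1, with limma adjusted p-values of 0.0216 and 0.0118.

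Beyond the gene, Adra2c +7153, also picked out after its values were seen, was at 31.8%, 37.5%, 43.7% and 39.7% in the DIO-VSG mice and at 39.1%, 16.4%, 18% and 14.3% in the DIO-HFD mice. Here again replicate 1 lay among the DIO-VSG mice and the other 3 below them. In M the difference was 1.2 (SE 0.439) with a limma adjusted p of 0.155, and 1.62 with a limma adjusted p of 0.00585 without replicate 1. Centred, with all mice, it was 0.71. Adra2c +7094, on the same fragment, had a limma adjusted p of 0.303 with all mice and of 0.00937 without replicate 1.

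A site that went the other way was Adra2c +1278. There, in the 5′ untranslated region, the DIO-LFD mice were at 38%, 38.5% and 35% and the DIO-HFD mice at 54.8%, 42.7%, 47.3% and 57.6%, without overlap. The difference in M was -0.78 (SE 0.358), with a limma adjusted p of 0.494 and of 0.206 without replicate 1. At Adra2c +6346, intergenic, the CON-LFD mean was 77.9% ± 5.69 (SD, n = 3) and the DIO-HFD mean 68.0% ± 10.5 (SD, n = 4), the latter ranging from 54.4% to 80.1%, and limma gave a difference in M of 0.69 with an adjusted p of 0.615. Without replicate 1 it was 0.98, with a limma adjusted p of 0.0864.

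By position, the 10 Adra2c sites within the gene had means of 37.3% ± 1.42 in DIO-VSG (SD, n = 4), 32.1% ± 3.15 in DIO-HFD (SD, n = 4), 35% ± 3.9 in DIO-LFD (SD, n = 3) and 36.9% ± 2.67 in CON-LFD (SD, n = 3). The 6 sites past its end had 63.4% ± 1.91, 55.8% ± 6.04, 62.2% ± 5.04 and 61.2% ± 1.47 in the same order. The 6 sites upstream, 5 of them in 1 MspI fragment, had 68.6% ± 3.59, 63.5% ± 8.27, 68.4% ± 7.23 and 59.9% ± 2.70, and there the order of CON-LFD and DIO-HFD rested on DIO-HFD replicate 1, at 75.4%. Without it the DIO-HFD means were 59.5% ± 2.80 upstream, 30.7% ± 1.74 within the gene and 53.0% ± 2.31 past its end (SD, n = 3), each the lowest of the 4 groups.

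Over its 20 tested sites the mean level of Adra2c was 55.1%, 43.5%, 43.5% and 44.7% in the DIO-HFD mice and 52.6%, 54.5%, 50.3% and 53.6% in the DIO-VSG mice. It was 54.0%, 46.2% and 53.2% in DIO-LFD and 51.0%, 48.4% and 48.5% in CON-LFD. The first DIO-HFD mouse was the highest of the 14 and the other 3 were the lowest. The difference of DIO-VSG from DIO-HFD was 6.05 percentage points, with a two-sided exact permutation p of 0.143. With the gene as the unit limma gave a difference in M of 0.46 and an adjusted p of 0.200, and without replicate 1 a difference of 0.66 and an adjusted p of 0.0121. The difference of 0.46 is about the median of all sites in that comparison, 0.48.

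**Figure D3:**
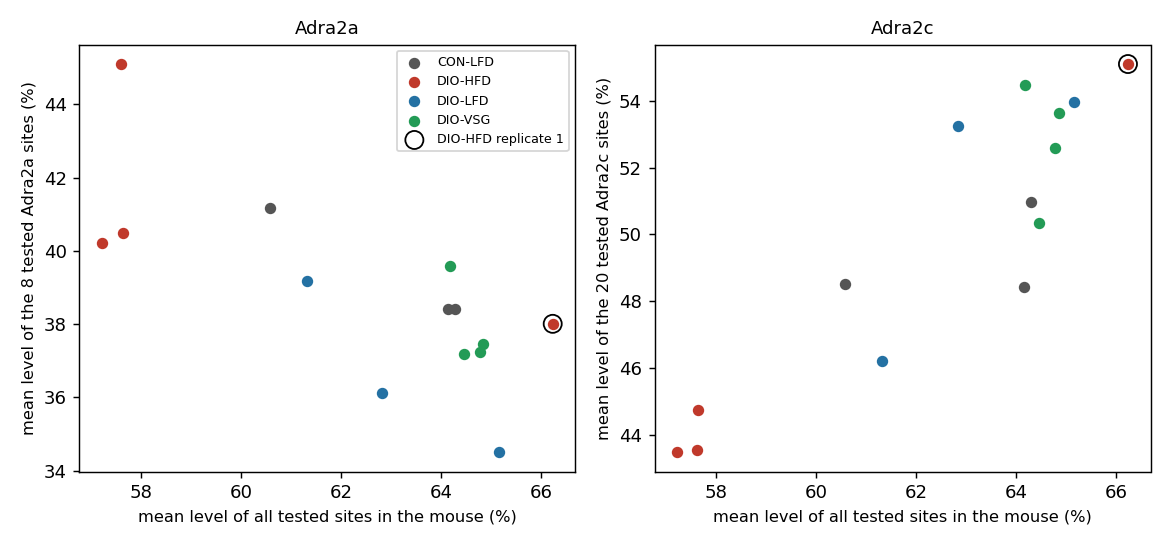
Mean level (%) of the tested Adra2a sites (left) and Adra2c sites (right) in each mouse (y axes) against the mean level of all tested sites in that mouse (x axes), coloured by group, with DIO-HFD replicate 1 circled. Adra2c is higher and Adra2a lower in mice with a higher overall level.

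Adra2a and Adra2c varied with the overall level of the mouse, in opposite directions. Over the 14 mice, which share the same libraries on both axes, Pearson's r with the mean of all tested sites was 0.90 for Adra2c (Spearman's rho 0.855) and -0.75 for Adra2a (Spearman's rho -0.754). Without the mice farthest from the median on the x axis, DIO-HFD replicates 2 and 3, r was 0.83 and -0.64 over 12 mice. DIO-HFD replicate 4, at 57.6%, lay beside them on that axis and was kept, so r without the whole low cluster was not computed. For Adrb1 r was 0.03. Among 6100 genes with at least 3 tested sites, the gene whose mean level ran most like that of Adra2c over the 14 mice was Nectin1 (r = 0.955, 19 sites), and most like that of Adra2a Ssbp3 (r = 0.861, 9 sites). The next genes reached 0.954 and 0.850, so these ranks are near ties and name no particular partner.

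Adra2b, which encodes the alpha-2B receptor, was represented only by 3 intergenic sites past its end, on 2 MspI fragments. They were highly methylated in every group, with means over the 14 mice of 88.4%, 80.3% and 92.3%. The tested one, Adra2b +13401, was at 88.0%, 63.4%, 68.9% and 74.4% in DIO-HFD and at 86.1%, 79.3%, 85.4% and 87.7% in DIO-VSG, so that replicate 1 was again the highest mouse and the other 3 the lowest. In M the difference was 0.87 (SE 0.404) with a limma adjusted p of 0.201, and 1.28 with a limma adjusted p of 0.00791 without replicate 1. At Adra2b +13390, 11 bp away, DIO-HFD was at 85.6% ± 5.94 (SD, n = 4) and DIO-VSG at 89.2% ± 4.34 (SD, n = 4). At Adra2b +13471 they were at 89.3% ± 4.17 and 94.6% ± 2.19.

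Of the alpha-1 receptors, which raise calcium and contract vessels, Adra1b had the clearest order of groups. At Adra1b -208 the DIO-LFD mice were at 42.6%, 39.9% and 27.3%, the CON-LFD mice at 42.1%, 45.1% and 41.3%, the DIO-HFD mice at 49.8%, 47.5%, 49.0% and 46.8% and the DIO-VSG mice at 59.2%, 63.6%, 49.3% and 48.5%. Neither DIO-LFD nor CON-LFD overlapped with DIO-HFD or DIO-VSG, while CON-LFD overlapped with DIO-LFD, and DIO-HFD with DIO-VSG. DIO-HFD replicate 1 lay with its group.

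DIO-VSG and DIO-LFD both ate the low-fat diet, and at Adra1b -208 their means were 55.2% ± 7.44 (SD, n = 4) and 36.6% ± 8.19 (SD, n = 3). In M DIO-VSG was higher by 1.09 (SE 0.321), with a two-sided exact permutation p of 0.0571, the smallest for 3 against 4 mice, and a limma adjusted p of 0.945. For DIO-LFD against DIO-HFD it was -0.70 (SE 0.321), with a limma adjusted p of 0.494 and of 0.173 without replicate 1. For CON-LFD against DIO-HFD it was -0.31 (SE 0.321), with a limma adjusted p of 0.738 and of 0.593 without replicate 1. The difference of DIO-VSG from DIO-HFD, 0.40, changed sign to -0.09 with each mouse centred.

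Adra1a +2605, in the coding sequence, was at 31.8%, 20%, 20.4% and 15.9% in DIO-VSG and at 25.0%, 7.14% and 0% in DIO-LFD. These groups overlapped through 1 DIO-LFD mouse. In M the difference was 2.09 (SE 0.948) with a limma adjusted p of 0.945, and over the left-out mice it ranged from 0.72 to 3.28. With 1 mouse at 0%, it also depends on the offset, and with 0.1 it was 0.97. In DIO-HFD the site was at 12.4% ± 7.64 (SD, n = 4) and in CON-LFD at 12% ± 5.0 (SD, n = 3).

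The 3 Adra1d sites had too little spread to pass the filter of the main test. Their means over the groups were 48.0% to 52.5% at +12, in the 5′ untranslated region, and 56.6% to 61.7% at -140, both within CCGG. At -471 they were low in every group, with 8.73% ± 1.89 in DIO-VSG (SD, n = 4), 3.46% ± 1.60 in DIO-HFD (SD, n = 4), 4.60% ± 5.05 in DIO-LFD (SD, n = 3) and 5.37% ± 2.37 in CON-LFD (SD, n = 3). There the DIO-VSG mice, at 6.92% to 11.3%, did not overlap with the DIO-HFD mice, at 1.41% to 5.29%. Of all tested sites 7.58% separated these groups. All 3 also lie in an intron of the antisense transcript Gm14285, and DNA methylation cannot be assigned to a strand's gene here.

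Adrb1, which encodes the beta-1 receptor, an activator of lipolysis and of the heart, was the beta receptor with data. At Adrb1 +1154, in the coding sequence, the DIO-HFD mice were at 45.0%, 39.3%, 37.2% and 37.9%, the DIO-VSG mice at 27.7%, 26.4%, 30.1% and 36.2% and the CON-LFD mice at 35.1%, 34.6% and 32.6%. Neither of the latter groups overlapped with DIO-HFD. The DIO-LFD mice, at 36.9%, 30.4% and 48.1%, spanned nearly the whole range.

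The mean at Adrb1 +1154 was 30.1% ± 4.32 in DIO-VSG (SD, n = 4) and 39.9% ± 3.53 in DIO-HFD (SD, n = 4), with a two-sided exact permutation p of 0.0286. The M values differed by -0.61 (SE 0.286), with a limma adjusted p of 0.201, and -0.51 with a limma adjusted p of 0.172 without replicate 1. With each mouse centred it was -1.10, with a limma adjusted p of 0.170. The second site, Adrb1 +1611, in the 3′ untranslated region, was at 72.4% ± 7.25 in DIO-VSG (SD, n = 4) and 70% ± 5.71 in DIO-HFD (SD, n = 4), so the gene's sites did not move together. The mean of both differed by -3.69 percentage points, with a limma adjusted p of 0.580 for the gene, and by -2.11 points without replicate 1, with a limma adjusted p of 0.748.

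**Figure D4:**
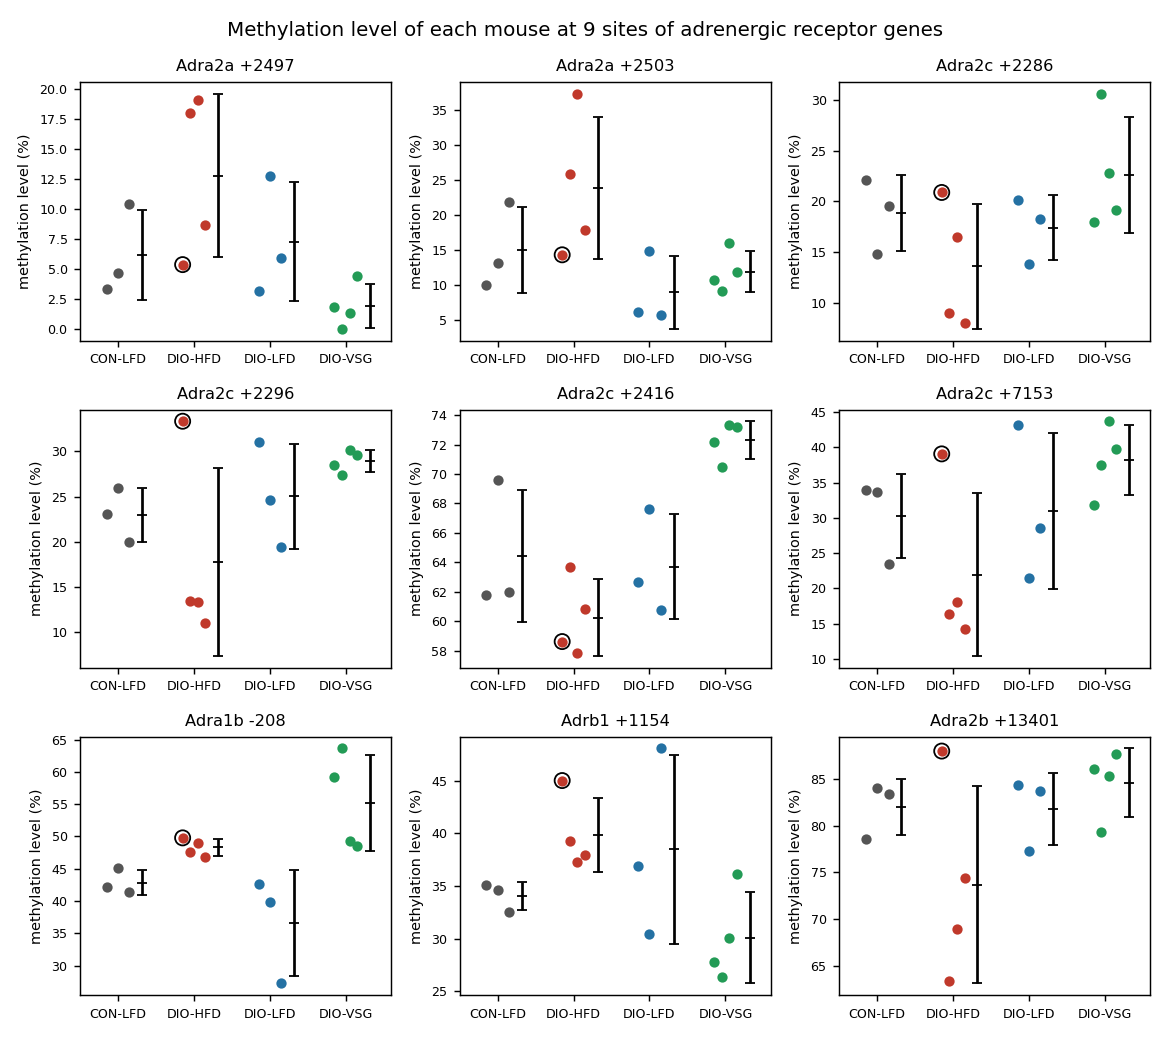
Methylation level (%, y axes, each panel with its own range) of each mouse at 9 receptor sites, by group (x axes), with group means and SD to the right of the points and DIO-HFD replicate 1 circled. DIO-VSG lies below all DIO-HFD mice at Adra2a +2497 and Adrb1 +1154 and above them at Adra2c +2416. At Adra2c +2296, Adra2c +7153 and Adra2b +13401 the circled mouse lies apart from the other 3 of its group.

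Counted by overlap, 4 of the 33 sites separated DIO-VSG from DIO-HFD completely, which is 12.1% against 7.58% of all sites. Of these 2 were higher (6.06% against 5.55%) and 2 lower (6.06% against 2.03%). Adra1d -471 and Adra2c +7309 lay below the spread filter and so outside these counts. They also separated DIO-VSG from DIO-HFD, both higher in DIO-VSG, and the share of such sites over the table was not counted. For CON-LFD and for DIO-LFD 2 sites each did not overlap with DIO-HFD, which is 6.06% against 4.68% and 4.8%. All of them were lower, as were 1.4% and 1.44% of all sites. Between DIO-VSG and DIO-LFD 2 did not overlap, Adra1b -208 and Adra2c +2416, which is 6.06% against 7.74%, and both were higher in DIO-VSG, as were 4.93% of all sites. Without DIO-HFD replicate 1 the count for DIO-VSG against DIO-HFD was 13, which is 39.4% against 46.4% of all sites.

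The rest of the pathway was followed in 65 genes in 9 lists, from noradrenaline synthesis to lipolysis and thermogenesis, of which 32 had tested sites, 283 in all. At an adjusted p under 0.05 in limma 0 of the 283 passed in each comparison. Before adjustment 54 passed for DIO-LFD against DIO-HFD, 41 higher and 13 lower, which is 19.1% against 10.1% of all sites. Of these 33 belong to Gnas, the imprinted gene of the stimulatory G protein, which alone holds 83 of the sites. For DIO-VSG 40 were higher and 24 lower, which is 22.6% against 25%. For CON-LFD 8 were higher and 0 lower, which is 2.83% against 7.76%, and between DIO-VSG and DIO-LFD 6 were higher and 5 lower, which is 3.9% against 3.98%. Without DIO-HFD replicate 1, after adjustment in limma, 16 sites passed for CON-LFD (5.65% against 12%), 45 for DIO-LFD (15.9% against 14.6%) and 81 for DIO-VSG (28.6% against 34.4%).

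Within these lists the G proteins had 139 tested sites and the adenylyl cyclases, which make cyclic AMP, 35. For DIO-VSG against DIO-HFD, where 20.2% of all sites were higher and 4.85% lower before adjustment in limma, 20 of the G protein sites were higher and 9 lower, which is 20.9% of them against 25%. Of the cyclase sites 8 were higher and 0 lower, which is 22.9%. The phospholipases C beta, which serve alpha-1 receptors, had 4 of 16 higher and 0 lower, which is 25%. The cAMP phosphodiesterases, which end the signal, had 0 of 23, and of the sites near genes of noradrenaline synthesis, storage, uptake and breakdown 3 of 14 were higher. Protein kinase A had 1 of 7 higher, and receptor kinases and arrestins 0 of 2 in either direction. Among the lipolysis genes 4 of 13 were higher and 1 lower.

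Among the effectors of lipolysis, Lipe, the hormone-sensitive lipase switched on by beta receptors, had the smallest p for DIO-VSG against DIO-HFD. In DIO-VSG its site at +2203 was at 85.7% ± 1.86 (SD, n = 4), against 59.4% ± 16.4 in DIO-HFD (SD, n = 4), a difference in M of 1.89 (SE 0.446) with a limma adjusted p of 0.150. It was 2.43 without DIO-HFD replicate 1, with a limma adjusted p of 0.000823. The 5 tested Lipe sites did not move together: with all mice 2 were higher and 1 lower before adjustment. Without replicate 1, 2 were higher and 2 lower after it. In thermogenesis, all 14 sites of DIO-VSG against DIO-HFD that passed before adjustment were lower, and they belong to Prdm16, a regulator of brown and beige fat with 33 of the 34 tested sites of the list. That is 41.2% of the list, where 4.85% of all sites were lower, and the sites of 1 gene are not independent. Prdm16 +1939 was at 11% ± 2.41 in DIO-VSG (SD, n = 4) and 23.8% ± 9.59 in DIO-HFD (SD, n = 4), a difference in M of -1.21 (SE 0.376) with a limma adjusted p of 0.150. Without DIO-HFD replicate 1 this site differed by -1.54, with a limma adjusted p of 0.00439, and 3 Prdm16 sites were higher and 13 lower after adjustment, where 28.8% of all sites were higher and 5.62% lower.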

How the data were processed

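Mammary adipose DNA of 14 mice was analysed. As the authors describe, RRBS reads were aligned to mm10 with Bismark and sorted with samtools, methylKit made the calls, and 1 CON-LFD and 1 DIO-LFD mouse were removed for poor sequencing quality. The authors deposited the level as a fraction from 0 to 1 per site and mouse, with gene, distance and region flags, shown here in percent. No read counts are given in it, so depth per site and mouse is unknown, and no intervals were computed.

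M, the log2 ratio of the level to its complement with 0.01 added to each, was computed, and the 65610 sites whose level had a standard deviation no lower than 0.05 were fitted in 1 model of 4 groups with limma 3.58.1 (R 4.3.3), adjusted by Benjamini-Hochberg. Genes were tested on their mean M. Single values were compared by two-sided exact permutation tests (SciPy 1.17.1). The fit was tested on simulated data. MspI fragments were cut in silico from mm10. Gene parts are those of GENCODE M21, read with pysam 0.24.0, and promoter windows those of RefSeq.

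The receptors, the pathway and marker lists and the tests were chosen with earlier results of these data known. Sites named are any past the adjusted threshold, those of genes with at most 3 sites, and in other genes the site nearest to the start and the one with the smallest p in each comparison with DIO-HFD. Other sites were picked after their values were seen. Pathway sites named are those with the smallest p of a list. The replicate block, other offsets, scales, filters and left-out mice were tried as alternatives. Expression was not analysed here.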

Additional observations from a re-analysis of the deposited data

Results flagged for a closer look

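In groups of 4 mice, the gap of the highest or lowest mouse to its neighbour was set against Dixon's 95% critical value, 0.83 of the range, which chance alone passes in about 1 of 20 groups. Of 38 such groups of receptor sites and gene means 2 passed, where 1.9 are expected by chance. The mean level of Adra2c in DIO-HFD replicate 1 was 55.1%, against 43.5% to 44.7% in the other 3 mice, a gap of 0.891 of the range. The mean level of Adra2a in DIO-VSG replicate 2 was 39.6%, against 37.2% to 37.4% in the other 3 mice, a gap of 0.894 of the range.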

How the results depend on the processing

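With all 14 mice, the count of 0 receptor sites past the adjusted threshold of limma held in the 4 comparisons under each alternative of scale, offset, moderation, filter, centring and groups fitted. It moved only without DIO-HFD replicate 1. With each mouse left out in turn, the count for CON-LFD against DIO-HFD lay between 0 and 1. That for DIO-LFD lay between 0 and 4, and that for DIO-VSG between 0 and 9. For DIO-VSG against DIO-LFD it was always 0. Counts before adjustment, 0, 3, 6 and 3 in that order, ranged from 0 to 7, 1 to 9, 3 to 11 and 1 to 4. The highest of the first 3 ranges came without DIO-HFD replicate 1. Over all 65610 sites the counts ranged from 2612 to 20299, 3828 to 21387, 9465 to 29443 and 2197 to 4445 in the same order. The count of 3 for DIO-LFD fell to 1 without any of CON-LFD replicate 2, DIO-HFD replicates 3 and 4, DIO-LFD replicate 3 and DIO-VSG replicates 1, 3 and 4. The 6 for DIO-VSG fell to 3 without DIO-HFD replicate 2 or 4, and the last 3 to 1 without DIO-VSG replicate 2. The cause was not tested.

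The count before adjustment for CON-LFD was 1 with no filter on spread and 2 with each mouse centred. For DIO-LFD it was 1 with only the 2 groups compared. With a standard deviation of at least 0.1, which leaves fewer sites, the counts were 0 for DIO-LFD, 1 for DIO-VSG and 0 for DIO-VSG against DIO-LFD. With genes in place of sites, of which 6 were tested, they were 1, 3 and 1. With the level in place of M the count for DIO-VSG against DIO-LFD was 1.

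The difference of Adra2a changed sign with only promoter sites, to 0.555 percentage points for DIO-LFD and 0.0551 for DIO-VSG against DIO-HFD, and to -0.500 for DIO-VSG against DIO-LFD, where no filter on spread gave -0.181. Without DIO-HFD replicate 1 the differences of Adra2a and Adra2c for DIO-VSG against DIO-HFD passed the threshold. Over all left-out mice the former ranged from -4.06 to -1.70 points and the latter from 4.97 to 8.84. Signs also changed for Adra2c in DIO-VSG against DIO-LFD (-0.846 to 3.04, without DIO-LFD replicate 2) and for Adrb1 in CON-LFD (-3.54 to 0.228, without DIO-HFD replicate 1), in DIO-LFD (-6.36 to 1.13, without DIO-LFD replicate 1) and in DIO-VSG against DIO-LFD (-4.82 to 2.67, without DIO-LFD replicate 3). These were not tested further.

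As a set, mice of different groups with the same replicate number deviated together little. The 19 pairs had correlations of deviations from -0.08 to 0.20, with a median of 0.03. Over 54 other pairs they ran from -0.29 to 0.19, with a median of -0.02. All pairs of replicates 1 lay above 0, at 0.04 to 0.20, as did those of replicates 3, at 0.002 to 0.11. Pairs of replicates 2 lay at -0.08 to 0.10. With the replicate block, 0 receptor sites passed after adjustment in the 4 comparisons, and before it 0, 2, 6 and 3 did. Over all 65610 sites 0, 1, 2 and 0 passed after adjustment, and 4914, 6119, 18113 and 2938 before it. In DIO-VSG against DIO-HFD with the block the difference in M was -2.52 at Adra2a +2497 and 0.76 at Adra2c +2416.

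Read depth is unknown, so a level of 0% or a step of a few points at 1 site cannot be weighed against its counting error.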

Other observations

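The span of Adra1d holds 7 further sites that the table assigns to the antisense gene Gm14285, all flagged as promoter and CpG island, and that of Adra1b holds 3 assigned to Ttc1. They were picked out after the receptor sites had been described. At the 7 sites the DIO-HFD means ran from 14.9% to 57.4% and the DIO-VSG means from 11.7% to 59.4%, and 5 of them were tested, with a lowest limma adjusted p of 0.300 over the 4 comparisons. At the 3 sites in Adra1b, near the end of the gene, the DIO-HFD means ran from 5.42% to 6.27% and the DIO-VSG means from 4.17% to 11.7%, with a lowest limma adjusted p of 0.232. These levels are well below the 46.6% mean of Adra1b -208.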
